A study of Mus musculus with 2 samples.

Results

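Mural cell nuclei of the fetal mouse brain were chosen by their raw counts of unique molecular identifiers (UMIs, tags that let each captured RNA be counted once). A barcode was taken when it had at least 500 detected genes, at most 5% of its UMIs from mitochondrially encoded genes, and at least 4 UMIs summed over Pdgfrb, Rgs5, Kcnj8, Abcc9, Notch3, Vtn and Higd1b. At least 2 of these 7 genes had to be detected, with at least 1 UMI of Rgs5, Kcnj8, Abcc9 or Notch3, and the endothelial genes Flt1, Kdr, Cldn5 and Cdh5 could sum to 2 UMIs at most. The rule found 77 mural nuclei among 13366 nuclei past the quality filter and 20574 barcodes in all. They came from single-nucleus RNA-seq of frozen whole fetal brain, with 1 library labelled wildtype and 1 labelled Cav1 knockout (KO). The strain, sex and gestational age of the fetuses, the number of brains per library and the kind of knockout allele are not given in the sources used here. The wildtype-labelled library gave 27 mural nuclei of 6686 and the knockout-labelled library 50 of 6680, and paired values follow this order, wildtype-labelled first. With 1 library per genotype no difference has a replicate check and none was tested, so every interval covers counting error only.

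Mural cells are the pericytes of capillaries and the smooth muscle cells of larger vessels, which lie on the outside of the endothelial tube within a shared basement membrane. Endothelial cells recruit them with the growth factor PDGF-B, which is read by the receptor PDGFRB on the mural cell, and Notch3 signalling supports their identity. In the brain, pericytes are known for their role in the formation of the blood-brain barrier and in the control of capillary flow. Caveolin 1, the product of Cav1, is the main coat protein of caveolae, flask-shaped membrane pits that are abundant in vascular cells.

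A pair of the rule genes encode the subunits of the ATP-sensitive potassium channel of mural cells, Kcnj8 its pore and Abcc9 its regulatory sulphonylurea receptor, and the genes are neighbours on the minus strand of chromosome 6. In the GENCODE annotation of GRCm39, Kcnj8 spans 142510563 to 142517830 and Abcc9 spans 142533588 to 142648571. The 250 bases before each start are shown because both genes helped to choose the nuclei and their products form 1 channel. They are RefSeq sequences on GRCm38.p6, chr6:142571615-142571864 for Kcnj8 and chr6:142702275-142702524 for Abcc9, read 5′ to 3′ on the gene's strand. Capitals mark TGGGAA, the core bound by RBPJ, the DNA-binding partner of Notch receptors, which was searched on both strands as TGGGAA or TTCCCA.
Kcnj8: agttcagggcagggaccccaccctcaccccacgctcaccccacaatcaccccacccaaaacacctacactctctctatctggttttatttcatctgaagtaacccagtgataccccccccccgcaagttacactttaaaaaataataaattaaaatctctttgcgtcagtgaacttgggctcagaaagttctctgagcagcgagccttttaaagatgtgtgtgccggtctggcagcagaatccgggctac
Abcc9: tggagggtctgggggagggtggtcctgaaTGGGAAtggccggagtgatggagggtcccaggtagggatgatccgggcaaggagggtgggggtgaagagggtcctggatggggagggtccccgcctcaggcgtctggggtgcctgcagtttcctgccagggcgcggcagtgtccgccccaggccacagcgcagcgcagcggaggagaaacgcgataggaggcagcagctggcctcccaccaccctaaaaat
The Abcc9 window held 1 match, 221 bases before the start, and the Kcnj8 window held 0. Of 32851 promoters of the same length, 7094 (21.6%) held at least 1 match, so a match describes the letters and is not evidence of a site. The windows also differed in base composition, with 66.8% G and C and 12 CpG dinucleotides for Abcc9 against 49.2% and 6 for Kcnj8. As rule genes, both are described only. Abcc9 was detected in 21 of 27 wildtype-labelled and 36 of 50 knockout-labelled mural nuclei. Kcnj8 was detected in 9 and 19 nuclei, of which 8 and 16 also held Abcc9.

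The other rule genes are given as a description, since they chose the nuclei. Pdgfrb, the PDGF-B receptor, had 52 UMIs in 18 wildtype-labelled nuclei and 75 UMIs in 39 knockout-labelled nuclei. Rgs5, a regulator of G protein signalling and a classical pericyte marker, had 33 UMIs in 18 nuclei and 57 in 29. Notch3 had 31 UMIs in 17 nuclei and 100 in 39, and Vtn, which encodes the matrix protein vitronectin, had 24 in 12 and 51 in 28. Higd1b was the sparsest, with 4 UMIs in 4 nuclei and 8 in 7. The nuclei held a median of 8 rule UMIs in each library, with ranges of 4 to 23 and 4 to 22.

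The nuclei were next described with 18 pericyte genes that the rule did not use. Their list was drawn up with earlier results of these data known, so it is no independent check of the label. At least 1 UMI of these genes was found in 27 of 27 and 49 of 50 mural nuclei, and at least 5 UMIs in 26 and 45. The transcription factor gene Ebf1 supplied 238 of the 456 and 562 of the 989 UMIs and is also found in endothelial nuclei and neurons, so the list was read again without it, a choice made after seeing the data, at 1000 UMIs per nucleus. At least 1 UMI of the other 17 genes was then found in 22 of 24 (91.7%) and 30 of 31 (96.8%) mural nuclei of lower depth, those with at most 2 times the median UMIs of the mural nuclei of their library. The share was 14.9% and 16.0% of neuron nuclei, 10% and 26.1% of endothelial nuclei and 49.3% and 51.1% of fibroblast nuclei. At least 3 UMIs were found in 66.7% and 67.7% of these mural nuclei, against 0% and 2.17% of endothelial and 5.80% and 2.13% of fibroblast nuclei. In the mural nuclei above that depth, 1 of 3 and 4 of 15 held at least 1 UMI, and 0 of 3 and 0 of 15 held at least 3. Contractile smooth muscle genes were sparser. Acta2, the smooth muscle actin gene, had 0 UMIs in both libraries. Myh11, the smooth muscle myosin heavy chain gene, had 0 and 1 UMIs, and Tagln, Des and Cnn1 had at most 1 UMI in either library. Of the 14 contractile genes, Mylk, the myosin light chain kinase gene, was the only one with 20 or more UMIs over both libraries, with 10 UMIs in 9 nuclei and 24 in 19. Myl9, Tpm2, Smtn and Pln were detected below 20 UMIs. At least 1 UMI of the contractile list was found in 17 of 27 and 27 of 50 nuclei. Without thinning, the 17 pericyte genes other than Ebf1 were found in 26 and 49 nuclei. Summed, the contractile list held 0.355 and 0.309 UMIs per 1000 in mural nuclei of lower depth. In nuclei that were not mural it held 0.055 and 0.045. Fibroblast nuclei held 0.239 and 0.131, close to the 0.268 and 0.126 of all mural nuclei, so the contractile list was not particular to mural nuclei. The nuclei are called mural by their rule.

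A group of deep nuclei stood apart. The median mural nucleus held 2327 and 2394.5 UMIs, but the deepest reached 12242 and 97470. Mural nuclei with over 2 times this median (4654 and 4789 UMIs) numbered 3 of 27 (11.1%) and 15 of 50 (30.0%). Among all kept nuclei, 543 (8.12%) and 867 (13.0%) exceeded the same limits. Of all mural UMIs, the deep nuclei held 34.8% and 83.3%. Their pericyte genes outside the rule came to a median of 1.96 and 1.52 UMIs per 1000, against 6.98 and 8.25 in the nuclei of lower depth. Their neuron genes (12 genes such as Dcx, Map2 and Syt1) came to a median of 6.1 and 6.35 per 1000, against 1.27 and 2.04. As a reference, neuron nuclei, which were defined by these genes, held 9.20 and 9.31 of their UMIs per 1000. Summed over nuclei, the 18 pericyte genes came to 2.17 and 1.27 per 1000 in deep nuclei, against 1.10 and 1.25 in neuron nuclei. Of the 18 deep nuclei, 12 held at least 20 UMIs of radial glia genes, and 7 held at least 3 UMIs of microglia and macrophage genes, all in the knockout-labelled library. Such counts rise with depth. Per 1000 UMIs, deep nuclei held 0.946 and 1.88 radial glia UMIs, against 1.66 and 1.63 in nuclei that were not mural. For the microglia and macrophage genes the values were 0.035 and 0.184, against 0.116 and 0.111. The part of mixed nuclei in these values was not tested, and no doublet caller was run. Comparisons between the libraries are therefore also given for the 59 nuclei of lower depth, 24 wildtype-labelled with 53568 UMIs and 35 knockout-labelled with 74404 UMIs. The libraries shared 43 barcodes, of which 0 belonged to mural nuclei.

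**Figure D1:**
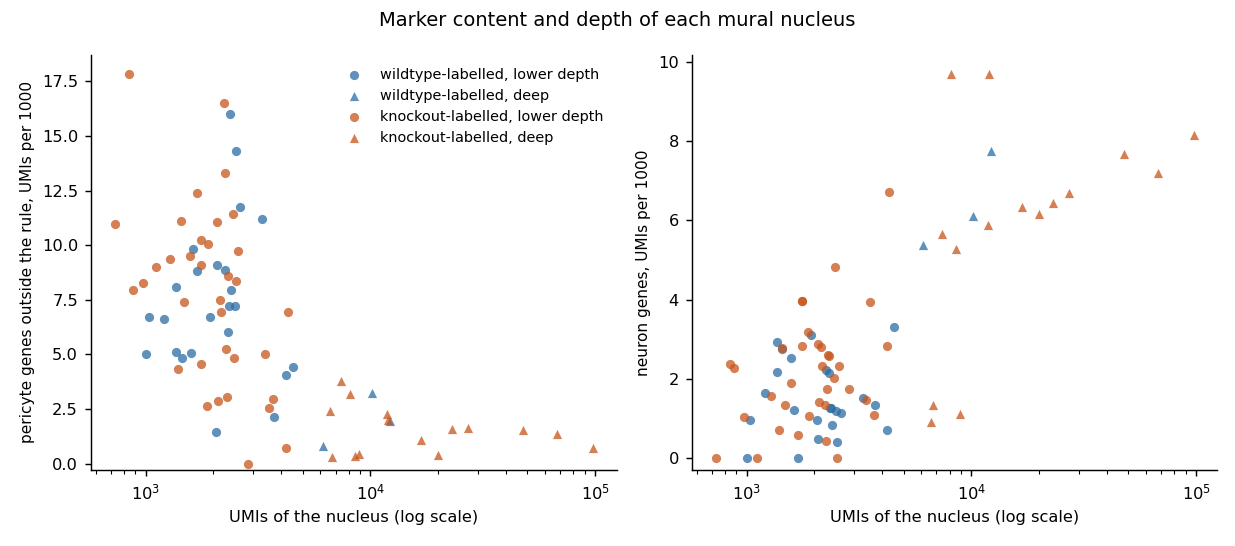
Each point is 1 mural nucleus, with its UMI total on a log axis and, on the vertical axes, its UMIs of the 18 pericyte genes outside the rule (left) or of the 12 neuron genes (right) per 1000 UMIs. Colours mark the libraries and triangles the 3 wildtype-labelled and 15 knockout-labelled deep nuclei, which lie at 3.78 pericyte UMIs per 1000 or lower.

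At the edges of the rule, nuclei were described by the 17 pericyte genes other than Ebf1, which endothelial nuclei express as well. Nuclei that met every other condition with a mural sum of 3 numbered 17 and 16, and their median count of these UMIs was 2 and 3. With a sum of 4, just inside, there were 2 and 6 nuclei, with medians of 1 and 2. Nuclei at the mural limit thus held few pericyte UMIs on both sides of it. At the endothelial limit, nuclei with a sum of 2, just inside, numbered 4 and 5 and had medians of 8.5 and 7. Those with a sum of 3, just outside, numbered 3 and 3 and had medians of 11 and 15. A further 9 and 15 nuclei had an endothelial sum over 3, and 7 and 10 of them held at least 5 such UMIs, against 3 of 41 and 6 of 47 nuclei of the endothelial class.

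Mural nuclei made up 0.404% (95% exact binomial interval 0.266% to 0.587%) of wildtype-labelled and 0.749% (0.556% to 0.986%) of knockout-labelled nuclei, a difference of 0.345 percentage points (0.088 to 0.613). The knockout-labelled share was the higher one under each setting tried, but the size of the difference moved with depth and with the marker limits. With an endothelial sum of 0 the difference was 0.135 points (-0.061 to 0.339). With a mural sum of at least 6 it was 0.210 points (-0.012 to 0.441). Without the deep mural nuclei the shares were 0.359% against 0.524%, a difference of 0.165 points (-0.063 to 0.400). When every nucleus was thinned to 1000 UMIs before the rule was applied, 21 of 5840 and 23 of 5569 nuclei were mural, 0.360% against 0.413%, and the difference was 0.0534 points (-0.181 to 0.294). At equal depth a difference in the share was therefore not detectable.

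**Figure D2:**
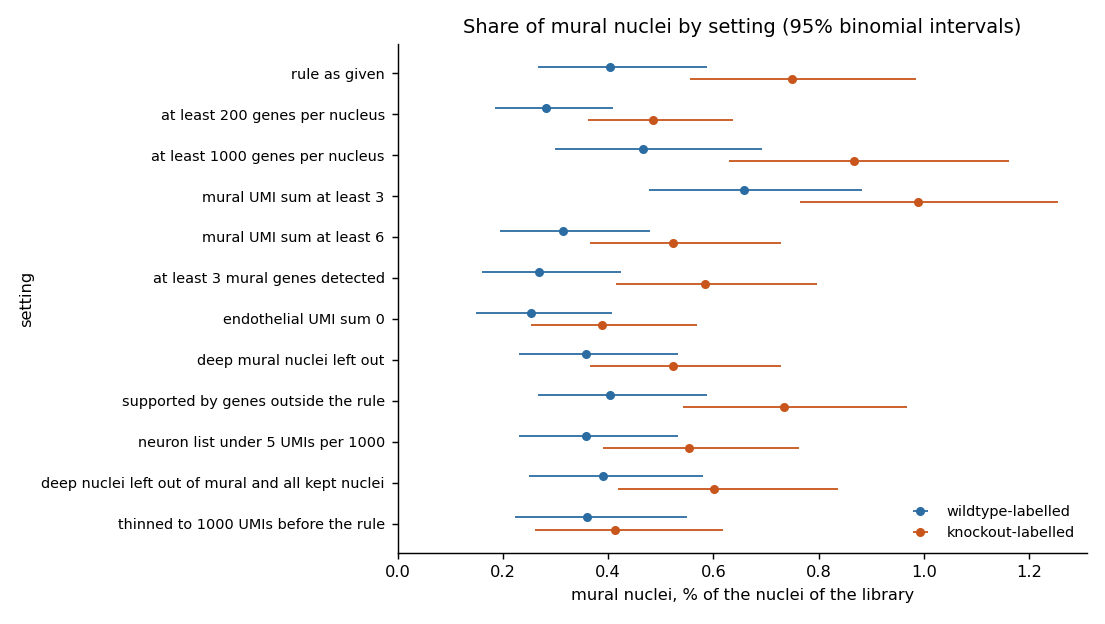
Points give the share of mural nuclei in each library and bars the exact 95% binomial interval, for the rule as given and for each other setting. The knockout-labelled share lies above the wildtype-labelled share in every row, and the points come closest in the lowest row, at 1000 UMIs per nucleus (0.360% and 0.413%).

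Among genes outside the rule, mural nuclei stood highest above other nuclei in Gm5127, 4933431K23Rik, Carmn, Irag1 and Slc38a11. A level is stated in CPM, which scales the summed nuclei of a class to 1000000 UMIs, and a gene was called enriched when its CPM in mural nuclei was at least 4-fold that of all other nuclei in both libraries. Because mural nuclei were chosen by expression, this contrast describes them and is no test. Of 5822 genes with at least 20 mural UMIs, 84 (1.44%) were enriched, and of 1355 such genes in the nuclei of lower depth, 169 (12.5%) were. All 68 of the 84 genes that had enough UMIs at lower depth were among the 169.

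Ednra, which encodes the endothelin A receptor, had 37 UMIs in 16 wildtype-labelled nuclei and 63 UMIs in 32 knockout-labelled nuclei. At lower depth its level was 560 CPM (378 to 799) and 726 CPM (545 to 947), against 3.80 and 3.40 CPM in all other nuclei. Endothelial nuclei held 0 and 2 Ednra UMIs. The long noncoding RNA 4933431K23Rik, with 45 and 69 UMIs, spans positions 78337473 to 78496342 of chromosome 8 on the plus strand. Ednra lies inside that span on the minus strand, at 78386590 to 78451552, so how reads were divided between them is uncertain where the counting did not use the strand. The same holds for Adap2, an ArfGAP gene with 27 and 21 UMIs, and its antisense transcript Adap2os, with 37 and 26.

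Carmn, a long noncoding RNA of smooth muscle and the host of the microRNAs miR-143 and miR-145, had 33 UMIs in 16 nuclei and 38 in 22. At lower depth it stood at 597 and 444 CPM. Irag1, whose product is a substrate of cGMP-dependent kinase at the calcium store, had 10 UMIs in 10 nuclei and 30 in 12. Slc38a11, a gene of an amino acid transporter family, had 7 and 16 UMIs. Endothelial nuclei held 0 UMIs of each of these 3 genes in both libraries, and neuron nuclei held at most 1.

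Morrbid, a long noncoding RNA known from myeloid cells, was among the most abundant of the enriched genes, with 75 UMIs in 24 nuclei and 121 in 31. At lower depth it reached 1251 and 1263 CPM, against 85.8 and 111 CPM in endothelial nuclei and 0.412 and 1.86 CPM in neuron nuclei. Mmp9, which encodes a gelatinase, had 16 UMIs in 10 nuclei and 54 in 26, and Il34, which encodes a ligand of the CSF1 receptor, had 14 in 9 and 21 in 13. The remaining genes of highest enrichment were Gm5127, Tmem45a, Gm4804, Stard8, Ggt5 and, at lower depth, Dlc1. Dlc1 was found in 24 of 24 and 33 of 35 nuclei of lower depth, at 3491 and 3441 CPM against 45.0 and 40.9 CPM in all other nuclei.

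The same genes were compared at equal depth. At 1000 UMIs per nucleus, Ednra had a UMI in 41.7% (22.1% to 63.4%) of 24 wildtype-labelled and 54.8% (36.0% to 72.7%) of 31 knockout-labelled lower-depth mural nuclei. In neuron nuclei, which should lack it, the share was 0.162% and 0.0627%, at median depths before thinning of 2344 and 2596.5 UMIs against 2173 and 2107 UMIs. Carmn was found in 50% and 38.7% of these mural nuclei and in 0 of 1848 and 0 of 1596 neuron nuclei, which allows up to 0.162% and 0.188% when 3 nuclei are taken as the limit of a count of 0. Dlc1 was found in 95.8% and 87.1%, against 1.68% and 1.13% of neuron nuclei. In endothelial nuclei its share was 30% and 30.4%, so Dlc1 was not confined to mural nuclei. In the knockout-labelled library, 4 mural nuclei were too shallow for this comparison.

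**Figure D3:**
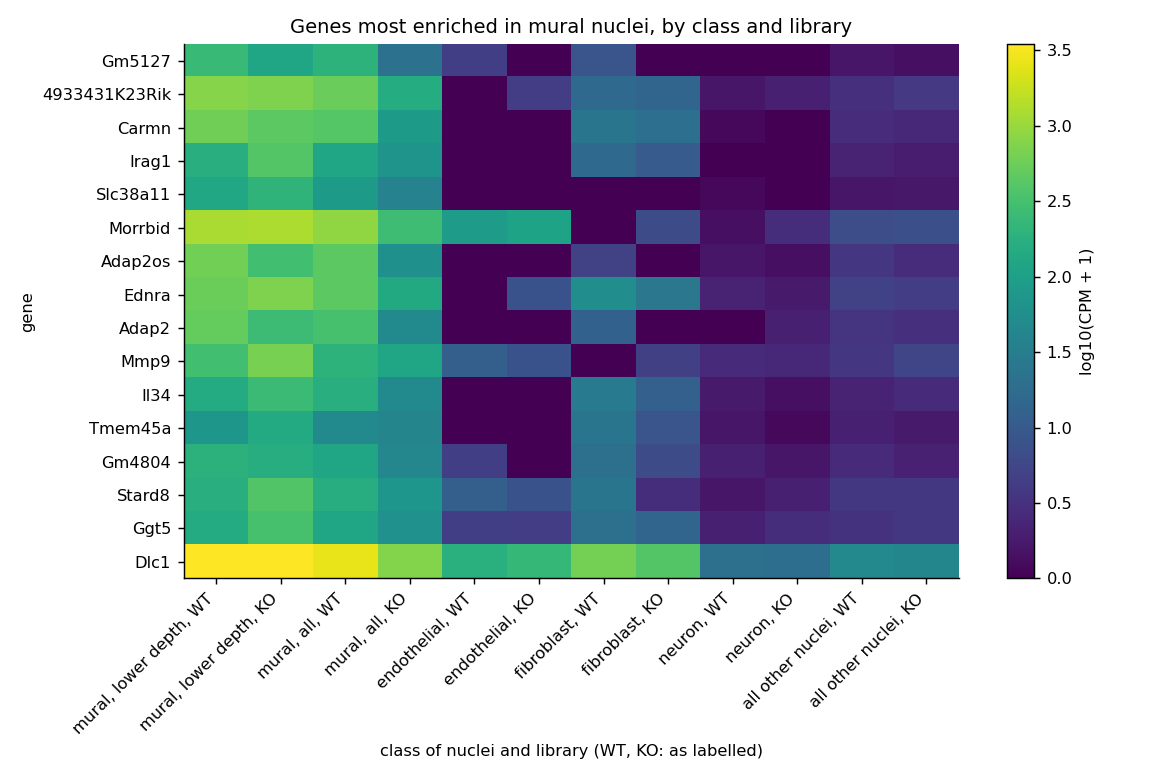
Rows are the 16 genes most enriched in mural nuclei, columns the classes of nuclei in each library (WT and KO as labelled), and colour the level as log10(CPM + 1). The 4 mural columns on the left are the brightest for each gene. Morrbid (85.8 and 111 CPM) and Dlc1 are also visible in endothelial nuclei, and Ednra and Dlc1 in fibroblast nuclei.

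By role, 10 gene lists with 166 genes were followed. Of these genes, 76 had enough UMIs to be compared over all mural nuclei and 42 over those of lower depth. Among the compared list genes, 20 were enriched over all mural nuclei, where 1.44% of all genes were, and 28 at lower depth, where 12.5% were. These shares are also the background for the counts of enriched genes in each list. The lists were drawn up from general knowledge with earlier results of these data known, so their counts describe the nuclei and do not support the choice.

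Among pericyte genes outside the rule, 9 of the 10 compared at lower depth were enriched. They included Mcam, which encodes the adhesion molecule CD146, with 27 and 31 UMIs, and Cspg4, which encodes the proteoglycan NG2, with 13 and 22. Atp13a5, a pericyte marker of the brain, had 21 and 14 UMIs. The transcription factor genes Tbx2, with 12 and 13 UMIs, and Ebf1, with 204 and 239, were enriched as well. Ebf1 was not specific to mural nuclei, at 3808 and 3212 CPM at lower depth against 882 and 1026 CPM in neuron nuclei. P2ry14 was the exception, with 4 and 17 UMIs and 74.7 and 228 CPM, against 164 and 166 CPM in neuron nuclei. Foxf2, a transcription factor gene of brain pericytes, had 0 UMIs in the wildtype-labelled library and 7 in 7 knockout-labelled nuclei, all of lower depth. Its knockout-labelled level of 94.1 CPM was at least 1.68-fold that of the other library, taking 3 UMIs as the floor.

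Of 19 transcription factor genes of mesenchyme and mural cells, 7 were compared at lower depth and 3 were enriched, Tbx2, Ebf1 and Epas1. Epas1, which encodes the hypoxia-inducible factor HIF-2 alpha, had 18 UMIs in 11 nuclei and 14 in 11. Its level was 336 and 188 CPM, against 154 and 121 CPM in endothelial and 7.72 and 7.48 CPM in fibroblast nuclei, so it marked both cell types of the vessel tube. The forkhead gene Foxd1 had 7 and 9 UMIs, at 131 and 121 CPM, against 112 and 65.4 CPM in fibroblast and 3.58 and 0 CPM in endothelial nuclei. Zic1, Mef2c, Nr2f1 and Nr2f2 were compared and not enriched, and Zic1, a zinc finger gene of the meninges and hindbrain, had 16 and 36 UMIs.

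Of the genes of vessel tone compared at lower depth, 8 of 11 were enriched. Prkg1, the cGMP-dependent kinase gene, had 162 UMIs in 23 nuclei and 187 in 34. Gucy1a1 and Gucy1b1, the subunits of the nitric oxide receptor guanylate cyclase, had 11 and 17, and 25 and 33 UMIs. The cyclic nucleotide phosphodiesterase genes Pde3a, Pde5a and Pde8b were enriched too, and Pde8b had 63 and 85 UMIs. Cacna1c, the L-type calcium channel gene, was not, with 30 and 39 UMIs, and is abundant in neurons.

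Of the basement membrane genes, 10 of 11 compared at lower depth were enriched. Col4a1, a chain of type IV collagen, stood at 989 CPM (741 to 1294) and 1250 CPM (1009 to 1531) in lower-depth mural nuclei. Endothelial nuclei held 382 and 636 CPM and fibroblast nuclei 432 and 449 CPM, so the gene was not confined to mural nuclei. Itga1, a collagen-binding integrin subunit gene, was more restricted, at 765 and 632 CPM against 89.4 and 128 CPM in endothelial and 19.3 and 31.8 CPM in fibroblast nuclei. Nid1, which encodes nidogen, and the laminin genes Lama2, Lama4, Lamb1, Lamc1 and Lamc3 were also enriched.

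The ligands and receptors of recruitment were sparse. Pdgfb, the endothelial ligand of PDGFRB, had 1 and 2 UMIs in mural nuclei and 30 and 37 in endothelial nuclei. Of 24 genes of PDGF, TGF-beta, angiopoietin and sphingosine phosphate signalling, Itgav, an integrin subunit gene, was the only one compared at lower depth, with 17 and 18 UMIs, and it was enriched. Angpt1, which encodes a ligand of mural cells for the endothelial receptor Tek, had 6 and 30 UMIs over all mural nuclei but 6 and 4 at lower depth. Tek itself had 2 and 14 UMIs, against 61 and 61 in endothelial nuclei.

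In the Notch list, Notch1 and Maml2, a coactivator gene, were compared at lower depth, and neither was enriched. The Notch target genes Heyl and Hey2 had 6 and 9, and 6 and 7 UMIs. Both were too sparse for comparison. Among growth factor genes, Igf2r, the receptor that clears IGF2, was enriched at 1213 and 1183 CPM at lower depth, and so was Igfbp7, which encodes a binding protein, at 597 and 417 CPM. Igfbp7 was also abundant in endothelial nuclei, at 311 and 471 CPM. Igf2 itself had 0 UMIs in mural nuclei of both libraries. None of the 16 cell cycle genes could be compared at lower depth, where the list summed to 25 and 39 UMIs.

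The targeted gene gave few counts. Over all kept nuclei, Cav1 had 71 and 80 UMIs, a sum that did not follow the labels, and for this reason the libraries are named by their labels throughout. In endothelial nuclei the counts were 13 and 1. In mural nuclei they were 1 and 1, and at lower depth 1 and 0. No difference was detectable at this depth, where 3 UMIs correspond to 36.5 and 6.74 CPM of mural nuclei. Reads from the 3′ end cannot tell whether a transcript lacks an exon.

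The other caveola genes were as sparse. Cavin1, Cavin2 and Cavin3, which encode coat proteins of caveolae, had 0 and 2, 0 and 0, and 1 and 1 UMIs, and none of the 10 caveola genes reached the 20 UMIs needed for comparison. Summed, the list had 6 and 48 UMIs, a log2 ratio of the knockout-labelled over the wildtype-labelled library of 0.56 (-0.67 to 2.08), and at lower depth 5 and 11 UMIs, 0.66 (-0.98 to 2.54). Cav2, next to Cav1 on chromosome 6, had 0 and 12 UMIs, and Gm15581 had 0 and 57. Gm15581 is a long noncoding RNA of the minus strand, from 17206822 to 17385603 on GRCm39. Its span holds both Cav2 (17281026 to 17289877) and Cav1 (17306140 to 17341451), which do not overlap each other. Within the spans of Cav2 and Cav1, reads of Gm15581 are told apart from theirs only where the counting used the strand. At lower depth these counts were 0 and 1, and 0 and 0. In all other nuclei the log2 ratios of Cav2 and Gm15581 were 5.12 (4.47 to 5.86) and 4.66 (4.29 to 5.05). Outside the deep nuclei the pair thus had a single UMI in mural nuclei.

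Between the libraries, gene levels in mural nuclei were set against each other as the log2 ratio of CPM, and a gene counted as past the fold at 2-fold. Over all mural nuclei, 908 of 5829 genes (15.6%) were higher and 632 (10.8%) lower in the knockout-labelled library. At lower depth, 105 of 1362 genes (7.71%) were higher and 84 (6.17%) lower. These shares are the background for each count of listed genes.

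Over all mural nuclei, mural genes were lower in the knockout-labelled sum. Of 76 list genes compared, 32 were past 2-fold lower and 5 past 2-fold higher, with a median log2 ratio of -0.65 against 0.02 over all genes compared. Of the 84 enriched genes, 71 were past 2-fold lower and 0 past 2-fold higher, with a median of -1.70. Abcc9, for example, stood at 1182 and 276 CPM, and the summed pericyte genes had a log2 ratio of -1.32 (-1.48 to -1.16). The neuron list moved the other way, at 0.91 (0.73 to 1.09), as did the radial glia list, at 0.77 (0.45 to 1.10).

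The lower level of mural genes was not seen in the nuclei of lower depth. Of 42 list genes compared there, 1 was past 2-fold lower and 2 past 2-fold higher, with a median of 0.00. Of the 169 enriched genes, 7 were lower and 11 higher, with a median of -0.10. Abcc9 stood at 1661 and 1384 CPM, Pdgfrb at 915 and 726 CPM and Rgs5 at 541 and 618 CPM, with overlapping intervals in each case. The summed pericyte genes had a log2 ratio of -0.08 (-0.27 to 0.11), the tone genes of -0.17 (-0.34 to 0.01) and the basement membrane genes of 0.17 (-0.04 to 0.39). The neuron and radial glia lists were still higher there, with values given below.

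**Figure D4:**
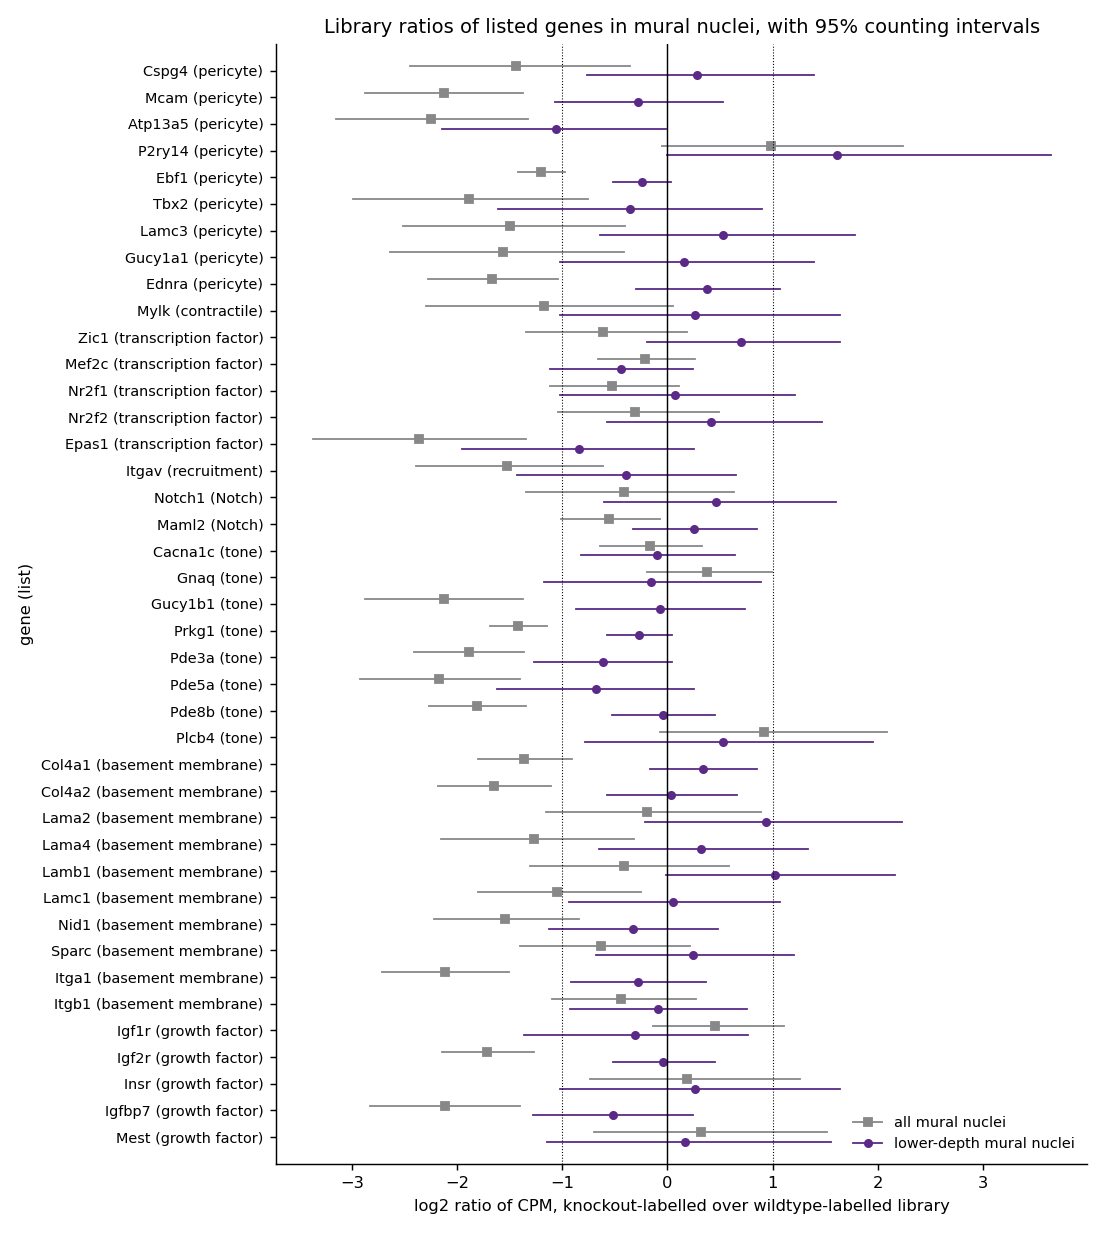
For list genes compared at lower depth, squares give the log2 ratio of the knockout-labelled over the wildtype-labelled library over all mural nuclei and circles that over nuclei of lower depth, with 95% counting intervals and dotted lines at 2-fold. Most squares lie left of 0, while the circles lie on both sides of 0, and past 2-fold are Atp13a5 (-1.06), P2ry14 (1.61) and Lamb1 (1.02).

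The list genes past the fold at lower depth were Atp13a5, P2ry14 and Lamb1. Atp13a5 had 21 UMIs in 7 wildtype-labelled nuclei and 14 in 7 knockout-labelled ones, a log2 ratio of -1.06 (-2.15 to -0.01). P2ry14, a nucleotide sugar receptor gene, had 4 and 17 UMIs, 1.61 (-0.00 to 3.64), and Lamb1, a laminin chain gene, had 11 and 31 UMIs, 1.02 (-0.01 to 2.16). Only the interval of Atp13a5 excluded 0 among the 42 genes, and over all 1362 genes 121 intervals did.

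The 10 highest ratios over all mural nuclei were those of Tenm1, Slit3, Ctnna3, Cntnap2, Gabrg3, Unc5c, Kcnb2, Car10, Lhfpl3 and Zfp804a, most of them known from neuronal adhesion, guidance and signalling. Of their 1683 UMIs in knockout-labelled mural nuclei, 1639 lay in deep nuclei, and 0 of the 10 had enough UMIs to be compared at lower depth. Of the 10 lowest, 6 were genes enriched in mural nuclei. At lower depth 4 of the 10 lowest could be compared, and 3 of these, Lurap1l, Adap2os and Gm5127, were past 2-fold lower there as well.

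At lower depth, Tfpi had the highest ratio. It encodes tissue factor pathway inhibitor, an anticoagulant made by vascular cells. Tfpi had 1 UMI in 1 of 24 wildtype-labelled nuclei and 26 UMIs in 14 of 35 knockout-labelled nuclei, with at most 4 in a nucleus. Its level was 18.7 CPM (0.473 to 104) against 349 CPM (228 to 512), a log2 ratio of 4.23 (1.62 to 9.58). Over all mural nuclei the counts were 1 and 35, while endothelial nuclei held 15 and 17 and the ratio in all other nuclei was 0.29 (-0.07 to 0.66). At 1000 UMIs per nucleus, Tfpi was found in 4.17% (0.105% to 21.1%) and 32.3% (16.7% to 51.4%) of lower-depth mural nuclei, and in 0.108% and 0.0627% of neuron nuclei.

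Mfge8, which encodes a secreted bridge for phosphatidylserine, had 2 UMIs in 2 nuclei and 22 in 18 at lower depth, a log2 ratio of 2.99 (0.96 to 6.12) against 0.29 in all other nuclei. Some other high ratios rested on few nuclei. Of the Efna5, Nrg1 and Dscam UMIs of the knockout-labelled library, 67, 87 and 25 came from 10, 5 and 5 nuclei, with up to 30 Efna5 and 61 Nrg1 UMIs in a single nucleus. Zfhx4, Grm7, Btaf1, Kcnip4 and Ybx1 completed the 10 highest.

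At the other end, Lurap1l, which encodes an adaptor-like protein, was low in the knockout-labelled library in both sets. It had 19 UMIs in 12 nuclei and 3 in 3 at lower depth, a log2 ratio of -3.14 (-5.54 to -1.37), and 21 and 10 over all mural nuclei, -3.51 (-4.76 to -2.36). In all other nuclei it was 0.28 (-0.01 to 0.57). Mirg, a noncoding RNA of the imprinted Dlk1-Dio3 region that hosts many microRNAs, had 29 UMIs in 15 nuclei and 12 in 10, -1.75 (-2.85 to -0.73). Erbb4, a neuregulin receptor gene of neurons, had 43 UMIs in 6 nuclei and 4 in 4 at lower depth, but 83 and 660 over all mural nuclei, so its direction turned with the deep nuclei. Among genes enriched in mural nuclei, Mmp9 was higher in the knockout-labelled library at lower depth, with 16 UMIs in 10 nuclei and 49 in 22, 1.14 (0.30 to 2.05). At 1000 UMIs per nucleus, however, Mmp9 had a UMI in 41.7% (22.1% to 63.4%) and 41.9% (24.5% to 60.9%) of these nuclei, and over all mural nuclei its ratio was -0.68 (-1.51 to 0.22). Adap2os was lower, with 33 UMIs in 19 nuclei and 22 in 17, -1.06 (-1.91 to -0.24). These genes were named for their ratios among 1362, so the size of a ratio is part of how they were chosen.

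Some marker lists of other cell types were higher in the knockout-labelled library, and others were not. At lower depth, 14 fibroblast genes summed to 39 and 100 UMIs, a log2 ratio of 0.88 (0.34 to 1.46), and 9 and 4 of them were at 0. Col3a1, a fibrillar collagen gene, had 10 UMIs in 7 nuclei and 36 in 13, and Col1a2 had 0 and 14 in 9 nuclei, at least 3.36-fold higher. The 2 nuclei with the most held 16 of the 39 and 46 of the 100 UMIs, while 8 of 24 and 12 of 35 nuclei had 0. The neuron list summed to 82 and 177 UMIs, 0.64 (0.25 to 1.03), and the radial glia list to 63 and 131, 0.58 (0.14 to 1.04). The endothelial list outside the rule summed to 28 and 35 UMIs, -0.15 (-0.91 to 0.62), with Pecam1, Tie1 and Erg at 0 in both libraries. Intervals also crossed 0 for the microglia and macrophage list, -1.47 (-3.66 to 0.43), and the choroid plexus list, -0.59 (-1.45 to 0.27). The same was true of the erythroid list, 0.08 (-0.46 to 0.64), and the oligodendrocyte lineage list, 0.53 (-0.41 to 1.53). The part of these markers in the ratios above was not tested.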

How the data were processed

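For 1 wildtype and 1 Cav1 knockout library of single nuclei (10x Genomics 3′ chemistry 3.1, per the labels), the authors deposited matrices of unnormalized UMI counts. The matrix headers name Cell Ranger 6.1.1, while the submitters' processing notes name Cell Ranger 3.0.1, STAR and GRCm39. Whether intronic reads and strand were used is not given in the sources used here. Of 55416 features, 54749 (98.8%) were matched by Ensembl identifier to GENCODE M39 on GRCm39. Promoters came from RefSeq on GRCm38.p6, with no coordinates converted.

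The classes were set by UMI sums. Endothelial nuclei had at least 4 UMIs of Flt1, Kdr, Cldn5 and Cdh5, with at least 2 of them detected, and at most 2 of the mural genes. Fibroblast nuclei had at least 4 of Col1a1, Col1a2, Col3a1, Dcn and Lum, with at least 2 detected and an endothelial sum of at most 2. Neuron nuclei, from the rest, had at least 10 of the neuron list and at most 2 of the radial glia list. Kept nuclei held at least 578 UMIs. UMIs were summed per library and class and scaled to CPM, with 95% exact Poisson, binomial and conditional binomial intervals and Newcombe intervals for differences of shares. A count of 0 was replaced by 3 in a ratio. Genes needed 20 mural UMIs. Thinning used a fixed seed. Only the conditional binomial intervals of library ratios were checked on simulated data. The simulated counts were Poisson draws without variation between nuclei, so the check covers counting error only. Any listed gene could be named, except an item that is not reported here, with the 15 most enriched genes and the 10 highest and 10 lowest library ratios whose interval excluded 0. The members and lists were chosen with earlier results of these data known. Python 3.11.15, numpy 2.4.6, scipy 1.17.1, pandas 2.3.3, statsmodels 0.14.6 and matplotlib 3.10.9 were used.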

Additional observations from a re-analysis of the deposited data

How the results depend on the processing

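No paired analysis was possible because each genotype has 1 library. Depth left 1362 genes to compare at lower depth, against 5829 over all mural nuclei. The difference in the share of mural nuclei was 0.345 points, kept its sign in every setting and was 0.0534 points at 1000 UMIs per nucleus. Without the deep nuclei, 105 and 84 genes were past 2-fold higher and lower in the knockout-labelled library (908 and 632 with them), 2 and 1 list genes (5 and 32) and 169 enriched genes (84). With mural nuclei under 5 neuron UMIs per 1000, chosen after seeing the data, these numbers were 165 and 96, 2 and 2, and 162. With at least 3 mural genes detected, 418 genes and 21 list genes were lower. With mural sums of at least 3 or 6, 3 list genes were higher each time, where 824 and 859 of all genes compared were. With an endothelial sum of 0, 34 genes were enriched. With a minimum of 10 UMIs per gene, 1283 genes were lower and 137 enriched. With a minimum of 50, 376 and 198 genes and 1 and 18 list genes were higher and lower, and 33 enriched. The number of genes compared changes with the UMI minimum, so these counts cannot be read as shares. With the mean of the nuclei's CPM, 7 list genes were lower, where 588 of all genes compared were. The summed caveola ratio stayed between 0.52 and 1.23, with every interval across 0. All 135 values of the 15 most enriched genes in other settings stayed past 4-fold, from 3.40 to 8.37 on the log2 scale.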

Other observations

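Of the 166 list genes, 42 reached the minimum of 20 UMIs at lower depth. Among the list genes under it, 3 had a counting interval of the library ratio that lay below 0, and they were picked after their values were seen. How many of all genes under the minimum had such an interval was not counted, so the 3 genes are a description of counts only. Only this direction is listed here. Foxf2, described above and also under that minimum, was higher in the knockout-labelled library. Trpc6, a cation channel gene, had 8 UMIs in 7 wildtype-labelled nuclei and 1 in 1 knockout-labelled nucleus, a log2 ratio of -3.47 (-8.95 to -0.58). Ano1, which encodes a calcium-activated chloride channel of contractile cells, had 13 and 6 UMIs, -1.59 (-3.27 to -0.09), against a ratio of 0.55 in all other nuclei. Dlk1, an imprinted growth regulator of the same region as Mirg, had 10 UMIs in 9 nuclei and 3 in 3, -2.21 (-4.71 to -0.25), against 0.91 in all other nuclei.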
